A study of Mus musculus with 12 samples.

Results

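Pax5, Bach2, Cd72 and Lyn are 4 genes of B cell control that lie in the first 60 Mb of mouse chromosome 4, and their 4 rows were read by symbol from count tables of 53546 rows. They were described in every library and compared between normal animals and animals with colorectal cancer. RNA came from mouse material that the labels call serum, while the column headers say Blood. The labels give 6 normal and 6 colorectal cancer samples as biological replicates, the series text speaks of different mice, and no strain, age, sex, treatment or tumour model is given. The files of colorectal cancer replicates 5 and 6 were identical and were counted as 1 sample, replicate 6, whose name stands in the header of both, which left 6 normal against 5 colorectal cancer libraries.

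Pax5 is the transcription factor that commits lymphoid precursors to the B cell lineage and holds them there. Bach2, a leucine zipper repressor that pairs with small MAF proteins, delays the step from activated B cell to antibody-secreting plasma cell. Cd72 is a surface lectin of B cells whose inhibitory motifs recruit the phosphatase Ptpn6, and it is a known target gene of Pax5. Lyn is a SRC family kinase that phosphorylates both the activating motifs of the B cell receptor and the inhibitory motifs of receptors such as Cd22 and Cd72. Lyn is also abundant in neutrophils, monocytes and platelets, where it acts with inhibitory receptors such as Pirb, so it does not mark B cells alone.

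None of the 4 rows passed the test between normal and colorectal cancer, and in each of them the groups overlapped. Levels are TMM-scaled CPM, the count of a row relative to a library total that has been corrected for a few dominant rows. Pax5 stood at 725 ± 146 CPM in normal libraries and 716 ± 37.8 in colorectal cancer (SD, n = 6 and 5), and Lyn at 1194 ± 181 and 1364 ± 103. From library to library, Lyn and Cd72 ran opposite to each other. In samples that mix cells, fewer cells of a type and less RNA per cell cannot be told apart.

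Libraries held 2889205 to 20774889 counts. A single row, named Olfr648, took 7969078 to 17324370 counts in 6 libraries (normal replicates 2 and 3 and colorectal cancer replicates 1, 2, 4 and 6) and 3247 to 5150 in the other 5, and without it the totals ran from 2885958 to 7033966. Gene symbols are used as the rows name them. In the first 60 Mb of chromosome 4 on the mm10 annotation, 33 of 319 protein-coding rows (10.3%) were at 0 in every library, against 42.7% of 20969 elsewhere. It was not tested whether each row measures the gene of its name, and this weighs most on rows outside that stretch. Of 9 defining B cell markers, Pax5 and Cd72 among them, 2 were at 0 and 6 were tested. Outside that stretch they were uneven: Ms4a1 had no count in any library, which allows up to 0.025 CPM over all libraries, and Cd79a had 123 counts in all, while Cd79b had 2370 and the B cell lectin Cd22 12357. The 4 rows described here held between 25333 and 127202 counts each over the 11 libraries.

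On GENCODE M21 (mm10), Lyn spans 3678115 to 3813122 of chromosome 4 on the plus strand and has 14 merged exons of 4073 bases in all. Bach2 spans 32238804 to 32586108 on the plus strand, with 9 merged exons of 9940 bases. Cd72 is the most compact, from 43446462 to 43454628 on the minus strand, with 7 merged exons of 3422 bases. Pax5 lies near it on the same strand, from 44524757 to 44710487, with 13 merged exons of 8853 bases. With a strand option not given in the sources used here, reads of a partner on the other strand cannot be told apart. This matters most for Cd72, where the exons of the kinase gene Tesk1 cover 1423 bases (41.6% of Cd72 exon length). Its row held 6180 counts in all against 25333 for Cd72. For Pax5, 636 bases (7.18%) are shared with 5730488B01Rik, a row of 924 counts, and for Bach2 537 bases (5.40%) with Bach2os, a row of 77. On Lyn, 248 bases (6.09%) are shared with Gm26857.

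The stretches before the annotated starts of the B cell markers Cd72 and Pax5 are shown because Cd72 is the row that ran opposite to Lyn across libraries, and Pax5 is the other B cell marker of the set. They come from RefSeq on GRCm38.p6, 5′ to 3′ on the minus strand, and Cd72 is cut where its annotated first exon begins (chr4:43454629-43454876 for Cd72, chr4:44710695-44710944 for Pax5). Of the 4 genes, 3 had a RefSeq start window. Capitals mark the letters GAGGAA on either strand, the core bound by the ETS factor PU.1 of B and myeloid cells.
Cd72: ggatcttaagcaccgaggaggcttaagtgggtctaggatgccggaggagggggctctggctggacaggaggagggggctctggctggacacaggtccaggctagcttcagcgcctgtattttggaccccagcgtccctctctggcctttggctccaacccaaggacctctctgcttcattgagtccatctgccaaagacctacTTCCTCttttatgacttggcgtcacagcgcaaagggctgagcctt
Pax5: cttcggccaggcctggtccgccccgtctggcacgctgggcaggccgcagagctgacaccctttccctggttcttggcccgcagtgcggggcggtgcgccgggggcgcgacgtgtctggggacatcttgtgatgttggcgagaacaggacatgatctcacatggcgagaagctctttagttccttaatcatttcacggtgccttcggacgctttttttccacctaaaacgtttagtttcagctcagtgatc

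In the 250 bases before the RefSeq start, GAGGAA was found once in Cd72, as TTCCTC on the printed strand, and not in Pax5 or Bach2. The Bach2 window (chr4:32417185-32417434) lies inside the GENCODE span of the gene given above. The Pax5 window does not reach the GENCODE start at 44710487. Bases directly before the GENCODE starts of Bach2 and Pax5 were not searched. It occurs in 23.3% of 32851 such windows of RefSeq genes, so the match is a description only. The octamer ATTTGCAT (1.60% of windows), the EBF-type CCCNNGGG (11.8%) and the E-box CAGGTG (17.2%), searched on both strands, were in none of the 3 windows.

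Pax5 had 741, 678, 581, 611, 990 and 747 CPM in normal replicates 1 to 6. In colorectal cancer replicates 1, 2, 3, 4 and 6 it had 700, 767, 669, 704 and 739. The 5 cancer values all lay inside the normal range, whose top was set by normal replicate 5. In edgeR's quasi-likelihood test, with p-values adjusted over 9565 rows by the Benjamini-Hochberg method, the log2 fold change was -0.02 with SE 0.12 and an adjusted p = 0.987. Its 95% interval ran from 0.821 to 1.19 times the normal level, so changes within those bounds could not be told from none.

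Bach2 had 327, 328, 338, 296, 460 and 374 CPM in normal replicates 1 to 6. The values in colorectal cancer replicates 1, 2, 3, 4 and 6 were 317, 371, 331, 365 and 283. Normal replicate 5 was again the highest library, and colorectal cancer replicate 6 lay below all normal ones. The group means were 354 ± 57.9 and 333 ± 36.3 (SD, n = 6 and 5), with a log2 fold change of -0.09 (SE 0.12, 95% interval -0.34 to 0.17, adjusted p = 0.898 by edgeR's test).

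Cd72 had 311, 265, 222, 254, 328 and 266 CPM in normal replicates 1 to 6. It had 238, 271, 316, 240 and 202 in colorectal cancer replicates 1, 2, 3, 4 and 6. The highest normal library was once more replicate 5, while cancer replicate 3 was high and replicate 6 lay below every normal library. Means were 274 ± 38.7 and 254 ± 42.8 (SD, n = 6 and 5), a log2 fold change of -0.11 (SE 0.13, 95% interval -0.39 to 0.16, adjusted p = 0.874 by edgeR's test).

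Lyn had 1004, 1061, 1400, 1384, 1039 and 1278 CPM in normal replicates 1 to 6. Its values in colorectal cancer replicates 1, 2, 3, 4 and 6 were 1459, 1335, 1237, 1310 and 1480. All 5 cancer libraries were above the normal median of 1170, and 2 were above every normal library. The log2 fold change was 0.19 (SE 0.11, 95% interval -0.04 to 0.42, unadjusted p = 0.0974 and adjusted p = 0.572 by edgeR's test). When the Olfr648 row was left out and libraries were scaled by their totals alone, Lyn was called (log2 fold change 0.60, adjusted p = 0.00453 by edgeR's test; over the other alternatives 0.348 to 0.9996). That scaling also took the median of all tested rows from a log2 fold change of 0.04 to one of 0.43, and Lyn stood 0.17 above this median, against 0.15 in the reported scaling.

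**Figure D1:**
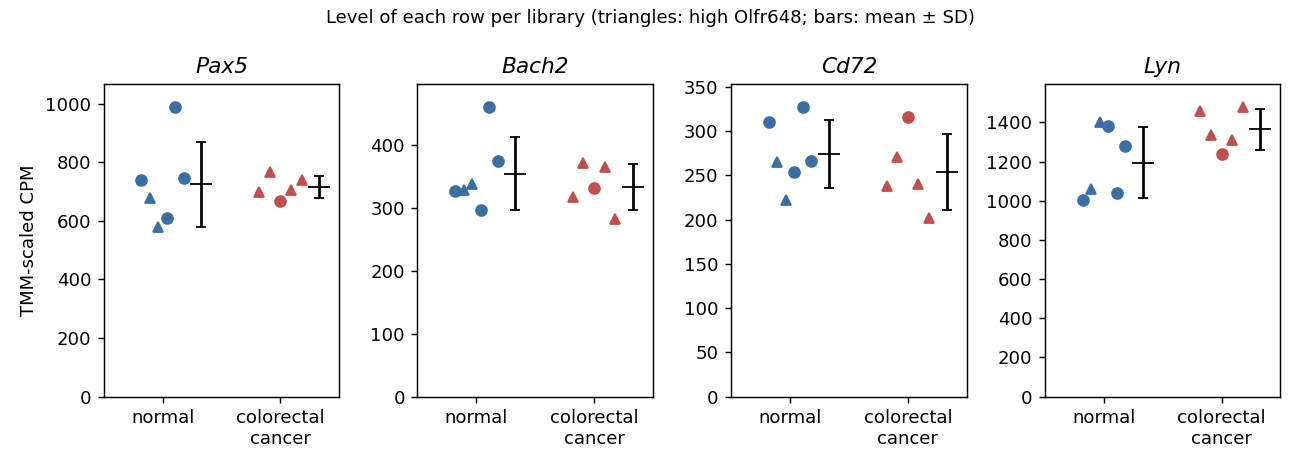
Level of each of the 4 rows in TMM-scaled CPM (vertical axis from 0) in 6 normal (blue) and 5 colorectal cancer (red) libraries, 1 symbol per library, with the mean and SD as a bar beside each group. Triangles are the libraries with high Olfr648 counts. The groups overlap in all 4 rows, and normal replicate 5 is the highest normal library in Pax5, Bach2 and Cd72 but not in Lyn.

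Over all 9565 tested rows, 2.02% were called at an adjusted p under 0.05 by edgeR's test, 0.565% as higher (54 rows) and 1.45% as lower (139 rows) in colorectal cancer. In 3.64% of tested rows the groups did not overlap. The 4 rows gave 0 calls and 0 parted groups. Unadjusted p under 0.05 held for 547 higher and 540 lower rows and for none of the 4, and DESeq2 called none of them either. These rows were among the most abundant, above 97.9% (Cd72), 98.3% (Bach2), 99.2% (Pax5) and 99.5% (Lyn) of tested rows in mean CPM, so low counts did not limit them: the smallest count behind any of the values was 1259.

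**Figure D2:**
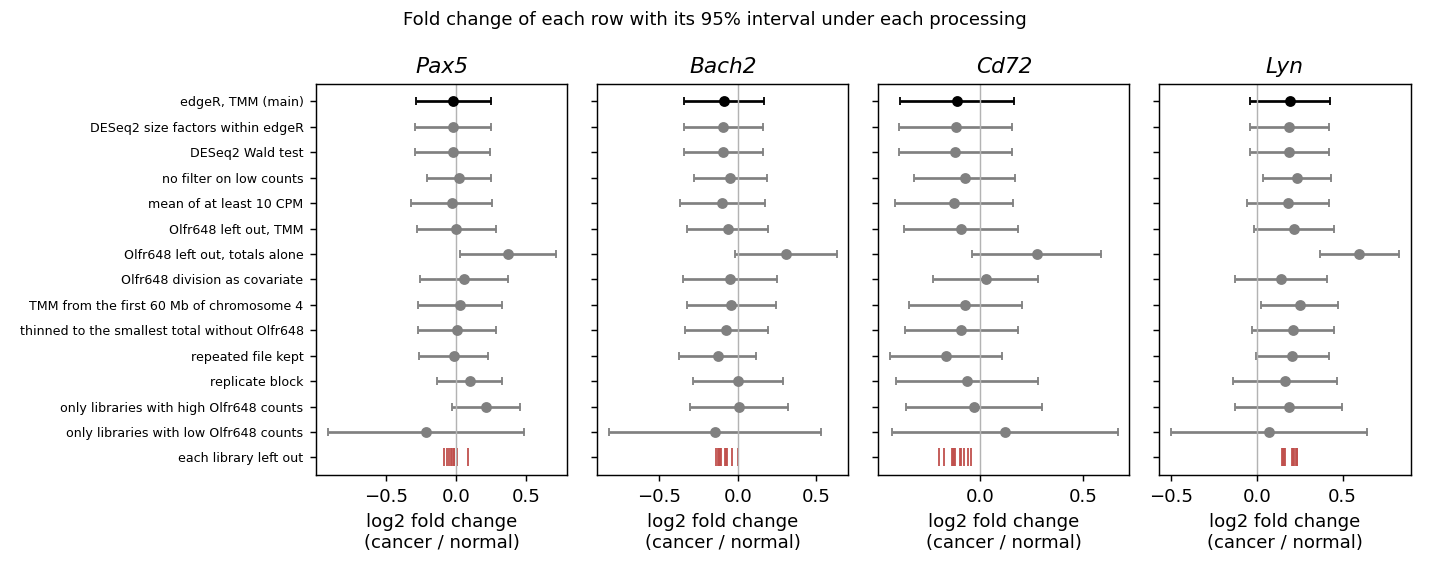
Log2 fold change of each row, colorectal cancer over normal (horizontal axis), with its 95% interval under the reported processing (black) and the alternatives (grey), and as red ticks without each library in turn. In all 4 panels the point with Olfr648 left out and totals alone lies to the right of the others, and that shift is shared by the median of all rows.

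Libraries with high Olfr648 counts were 4 of 5 in cancer and 2 of 6 in normal serum, so the division moves with the groups. Within the 6 high libraries the log2 fold change was 0.21 for Pax5 (95% interval -0.03 to 0.46), 0.01 for Bach2, -0.03 for Cd72 and 0.18 for Lyn (-0.13 to 0.50), by edgeR's test. In the 5 low libraries, with a single cancer library assumed to vary like the normal ones, the values were -0.22, -0.15, 0.12 and 0.07, and with 1 library in an arm their intervals were wide (-0.91 to 0.48 for Pax5), so they are given as values only. These 2 fits were added after the data were seen. The low cancer library, replicate 3, had the highest Cd72 and the lowest Lyn of its group.

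Per kilobase of merged exon, Lyn was the highest of the 4, at 293 ± 44.3 CPM per kilobase in normal and 335 ± 25.3 in cancer libraries (SD, n = 6 and 5). Pax5 (81.8 ± 16.5 and 80.9 ± 4.27) and Cd72 (80.1 ± 11.3 and 74.1 ± 12.5) did not differ beyond their spread. Bach2 was lowest, at 35.6 ± 5.82 and 33.5 ± 3.65. Lyn came first and Bach2 last in all 11 libraries, with Pax5 above Cd72 in 7 and below it in 4. Merged exon length counts all annotated exons of a gene, which can understate the level of one that uses few of them.

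Ratios of counts within a library do not depend on the scaling. There were 3.23, 4.01, 6.30, 5.46, 3.17 and 4.81 Lyn counts per Cd72 count in normal replicates 1 to 6, and 6.13, 4.92, 3.91, 5.46 and 7.31 in colorectal cancer replicates 1, 2, 3, 4 and 6. The groups overlapped over most of their range. The mean log2 ratio was 2.12 ± 0.40 in normal and 2.44 ± 0.34 in cancer libraries, so the difference of 0.32 was smaller than the spread within either group. Lyn to Pax5 differed by 0.20 and Lyn to Bach2 by 0.28. These differences were smaller than the normal spread of 0.45 and 0.37 but larger than the cancer spread of 0.10 and 0.25. Pax5 to Bach2 had medians of 2.06 and 2.07 counts and Bach2 to Cd72 of 1.32 and 1.37, and Pax5 to Cd72 had medians of 2.59 and 2.93 with cancer libraries on both sides of the normal range.

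Across the 11 libraries Lyn ran opposite to Cd72. On log2 CPM, Pearson's r was -0.79 (permutation p = 0.00445, adjusted p = 0.0267 over 6 pairs) and Spearman's rho -0.85 (permutation p = 0.00163, adjusted p = 0.00978), both two-sided with 100000 resamples. It was -0.67 without the libraries farthest from the Cd72 median (normal replicate 5 and colorectal cancer replicate 6), -0.67 within the 6 high-Olfr648 libraries and -0.84 within the 6 normal ones. Cancer alone and the low libraries hold 5 each, too few for a value.

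No other pair passed. Pax5 and Bach2 had r = 0.70 and rho = 0.51 (permutation p = 0.0249 and 0.115, adjusted p = 0.0747 and 0.194). The r of this pair was 0.87 within the 6 normal libraries, 0.45 without normal replicates 3 and 5 and -0.02 within the high libraries. Bach2 with Cd72 had r = 0.57, which was 0.56 within the normal and 0.72 within the high libraries and -0.02 without normal replicate 5 and colorectal cancer replicate 6. Pax5 with Cd72 had r = 0.49, which was 0.89 within the normal and 0.25 within the high libraries and -0.06 without normal replicates 3 and 5. Lyn had r = -0.48 with each of Pax5 and Bach2, which were -0.07 and 0.02 without the 2 libraries farthest from the median of Pax5 or of Bach2. Within the 6 normal libraries they were -0.69 and -0.38, and within the high ones 0.06 and -0.31.

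Rows of genes tied to Lyn or Cd72 in blood cells were then set beside them. Pirb, an inhibitory receptor of myeloid cells and B cells that Lyn phosphorylates, had 240 ± 86.6 CPM in normal and 486 ± 110 in cancer libraries (log2 fold change 1.02 ± 0.24 SE, and adjusted p = 0.0550 in edgeR's test). Mmp8, a neutrophil collagenase, had 206 ± 119 and 558 ± 120 (adjusted p = 0.134 by edgeR's test). Sit1, a lymphocyte signalling adaptor whose gene lies 27453 bases from Cd72, had 28.6 ± 7.57 and 20.3 ± 5.71 (adjusted p = 0.439 by edgeR's test). None of the 3 passed the comparison of groups.

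These 3 rows were picked after they were seen to move with the 4 rows. The correlations of the 12 pairs computed are therefore a description only, without p-values. Lyn had r = 0.84 and rho = 0.83 with Pirb, and r was 0.80 within the 6 normal and 0.81 within the 6 high libraries. Leaving out normal replicates 1 and 5, the farthest from the Lyn median, gave 0.68. With Sit1 the r of Lyn was -0.81 and rho -0.92, and r was -0.73 without those libraries. Cd72 went the other way, with r = 0.80 and rho = 0.77 for Sit1, and r = 0.71 without normal replicate 5 and colorectal cancer replicate 6. With Pirb, Cd72 had r = -0.74 and rho = -0.69, and r = -0.50 without them. Mmp8 was lower in all normal than in all cancer libraries, so for it only the value within the 6 normal ones is given: 0.68 with Lyn, -0.84 with Cd72, -0.79 with Pax5 and -0.60 with Bach2. Pax5 had r = -0.42 with Pirb and 0.33 with Sit1, which were -0.04 and -0.08 without normal replicates 3 and 5. Within the 6 normal libraries these r of Pax5 were -0.92 and 0.62, and within the 6 high ones 0.58 and 0.10. Bach2 had -0.58 and 0.43, which were -0.02 and 0.09 without normal replicate 5 and colorectal cancer replicate 6. For Bach2 they were -0.77 and 0.21 within the normal and -0.29 and 0.60 within the high libraries.

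**Figure D3:**
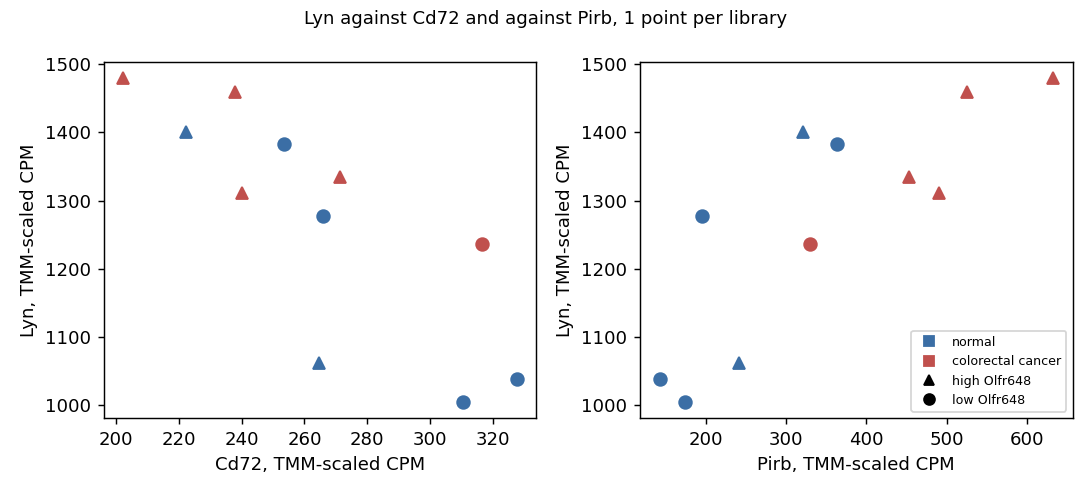
Lyn against Cd72 (left) and against Pirb (right) in TMM-scaled CPM, 1 point per library, blue for normal and red for colorectal cancer, with triangles for high Olfr648 counts. Lyn falls from left to right against Cd72 (r = -0.79) and climbs against Pirb (r = 0.84), with libraries of both groups along each course.

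Markers of other blood cells moved in part with the groups. Of 27 neutrophil and monocyte markers 13 were at 0 in all libraries, among them S100a8, S100a9, Lcn2, Csf3r and Csf1r, and 7 were tested with 0 calls and a median log2 fold change of 0.25. Their summed level was 114 to 405 CPM in normal and 444 to 742 in cancer libraries, most of it from Mmp8. Mmp9, the other abundant one, had 20.2 ± 4.05 and 23.8 ± 3.88 CPM. Of 19 T and NK cell markers 6 were at 0 (Cd8b1, Cd2, Klrb1c, Gzma, Gzmb and Nkg7). The summed level was 363 to 537 CPM in normal and 208 to 331 in cancer libraries. Most of it came from Cd3e, a CD3 subunit of T cells (279 to 501 CPM in normal and 153 to 275 in cancer libraries). Of the 7 tested, only Cd3e fell (377 ± 71.3 to 195 ± 47.2 CPM, adjusted p = 0.0107 by edgeR's test), and the median log2 fold change was -0.33. Cd3d and Cd3g, for other CD3 subunits, had 2 and 548 counts in all, against 24672 for Cd3e. Red cell and platelet markers summed to 1125 to 1964 CPM in normal and 300.5 to 893 in cancer libraries. Of the 8 tested, 4 were called lower (Hemgn, Tspan33, Tmod1 and Itga2b), against 1.45% of all tested rows. Of 22 rows 10 were at 0, among them Hbb-bs and Alas2, against 42.7% of protein-coding rows outside the 60 Mb stretch. The called platelet gene was Itga2b alone, while Pf4, Ppbp, Gp1ba, Gp9, Treml1 and Tubb1 were at 0. Of 9 defining myeloid markers 5 were at 0 and 0 were tested. They summed to 0 to 1.24 CPM in normal and 0.097 to 1.01 in cancer libraries. Lyn is expressed in neutrophils and platelets, and whether its values moved with the number of such cells was not tested.

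Among B cell genes outside the 4, no row passed. Of 19 transcription factors of B cells 6 were at 0 (Spib, Pou2af1, Bcl6, Lef1, Rag1 and Rag2), 8 were tested, and their median log2 fold change was 0.06 against 0.04 over all tested rows. Id3, an inhibitor of E proteins, was the most abundant, at 164 ± 17.8 and 184 ± 14.3 CPM, and Tcf3, which encodes those E proteins, had 6.14 ± 1.28 and 5.06 ± 1.05. Ebf1, the partner of Pax5 in B cell commitment, had 2.27 ± 1.77 and 2.49 ± 1.11 CPM, far under the Pax5 row in the same libraries.

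Of 32 rows for the B cell receptor and surface markers 13 were at 0, among them Ms4a1, Cr2, Cd74 and H2-Aa, and 8 were tested, with a median log2 fold change of -0.12. The summed level of the list was 173 to 202 CPM in normal and 175 to 200 in cancer libraries, so the ranges nearly coincided. Cd22, a sialic acid lectin that Lyn phosphorylates, had 131 ± 11.3 and 123 ± 6.10 CPM. Cd79b, a signalling chain of the B cell receptor, had 25.6 ± 3.10 and 23.2 ± 2.79. Both stood slightly lower in cancer, by less than the SD of the normal libraries.

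Of 19 genes that carry the B cell receptor signal 7 were at 0, including the kinases Syk and Btk that act after Lyn. The other rows gave 8 tests with no call and a median log2 fold change of 0.07. Nfatc1, a calcium-driven transcription factor, had 47.0 ± 5.39 and 48.4 ± 9.89 CPM, and the calcium channel Itpr1 24.9 ± 5.49 and 26.1 ± 2.19.

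Of 18 rows for inhibitory receptors and phosphatases that act with Lyn and Cd72, 4 were at 0, 10 were tested and 0 passed, with a median log2 fold change of -0.12. Their summed level was 542 to 779 CPM in normal and 720 to 1028 in cancer libraries. Pirb was the most abundant row in it, with means of 240 CPM in normal and 486 in cancer libraries. Of the 10 tested rows, 4 had a log2 fold change above 0. Ptpn6, the phosphatase that Cd72 recruits, had a log2 fold change of -0.14 (SE 0.10).

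Most rows for the plasma cell programme that Bach2 represses had few or no counts, and the reason was not tested. They lie outside the 60 Mb stretch, where 42.7% of protein-coding rows were at 0 in every library. Of 14 rows for this programme and the BACH and small MAF families 4 were at 0 (Bach1, Mafk, Hmox1 and Xbp1), 3 were tested and 0 passed, with a median of -0.01. Slamf7, a plasma cell surface protein, had 11.1 ± 8.49 and 7.27 ± 2.75 CPM, and Maff, a small MAF protein, 4.25 ± 1.24 and 4.21 ± 1.02. Prdm1, the plasma cell regulator that Bach2 represses, had 17 counts over all libraries, and the antibody joining chain Jchain 21.

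Rows for relatives of Lyn and Pax5 were lower than the rows of Lyn and Pax5. These relatives too lie outside the 60 Mb stretch, where 42.7% of protein-coding rows were at 0, and the reason was not tested. Of 7 other SRC family kinases 1 was at 0, 3 were tested and 0 passed (median -0.06), with Src at 23.4 ± 6.06 and 22.5 ± 3.37 CPM and the myeloid kinase Fgr at 15.8 ± 4.08 and 18.7 ± 3.29. Blk, the B cell member of this family, had 12 counts in all. Of 8 other PAX genes 7 were at 0, and Pax7, a muscle precursor gene, had 13.0 ± 2.26 and 12.2 ± 0.536 CPM.

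Within 500 kb of the 4 genes 3 of 60 tested rows were called (5.00%), all lower in cancer, against 2.02% of all tested rows. The 12 tested rows around Pax5 and 12 around Bach2 had no call, and the nearest tested genes there were Melk and Zcchc7 on the sides of Pax5 and Map3k7 and Casp8ap2 on those of Bach2. Zcchc7, 45390 bases from Pax5, had 206 ± 30.4 and 212 ± 18.7 CPM, and Casp8ap2, 29343 bases from Bach2, 110.1 ± 10.6 and 108 ± 4.69. Rusc2 and Sit1 were nearest to Cd72 without overlapping it, and 2 of the 26 tested rows around it fell. These were Fam214b at 400242 bases (427 ± 87.2 to 218 ± 29.7 CPM) and Fam221b at 204994 bases (482 ± 72.5 to 288 ± 39.4), with adjusted p = 0.00603 and 0.00785 by edgeR's test. The nearest rows to Lyn were Tgs1 and the ribosomal protein gene Rps20 (1535 ± 145 and 1454 ± 225 CPM), and 1 of 10 tested rows fell, Gm11808 at 159970 bases (3446 ± 763 to 1586 ± 471 CPM, adjusted p = 0.0127 by edgeR's test). In the whole 60 Mb stretch 260 rows were tested, 1 was higher and 14 were lower (5.77% called), and the median log2 fold change was -0.01.

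**Figure D4:**
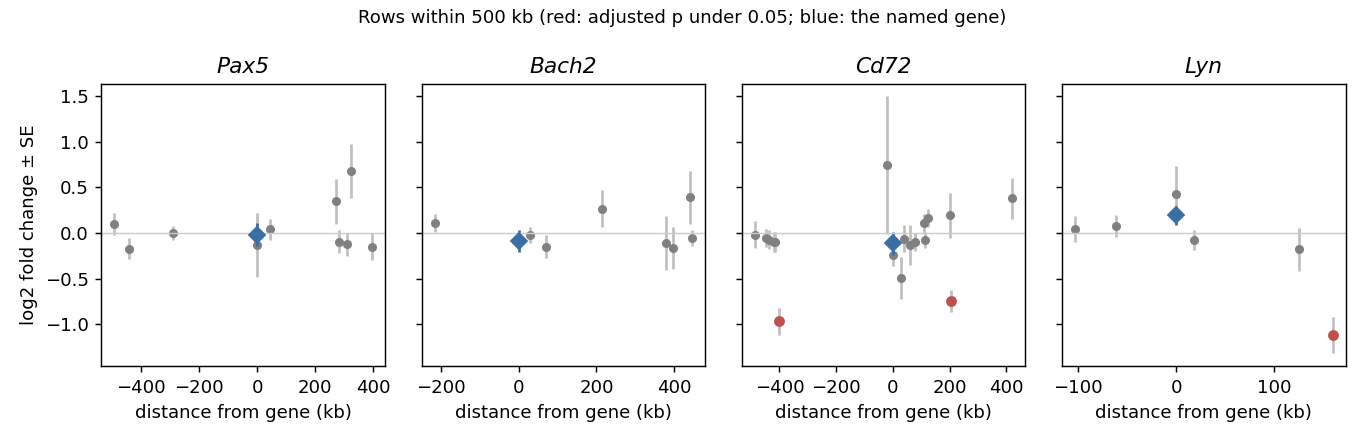
Log2 fold change, colorectal cancer over normal, with its SE (vertical axis) of tested rows within 500 kb of each gene, by distance from the gene in kilobases (horizontal axis), for rows whose group means sum to at least 10 CPM. The 4 genes (blue diamonds) lie near 0 as most rows around them do, and the 3 rows past the threshold (red) are Fam214b, Fam221b and Gm11808.

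Among 3577 other rows with a mean of at least 10 CPM, the rows whose log2 CPM followed each gene most closely over the 11 libraries were ranked by Pearson's r, as a description of libraries that share depth and scaling. For Bach2 they were Snx30, Ablim1, Smim14, St6gal1 and Gm20468 (r from 0.89 to 0.82). For Pax5 they were 2210406O10Rik, Zer1, Dhx58, Foxr2 and Esyt2 (0.89 to 0.82), with Bach2 in rank 43. Cd72 was followed by Zfp949, Atp13a2, Eif4g1, Hcar2 and Gm29123 (0.87 to 0.84), and Lyn ranked 3552 for it. Lyn was followed by Rbpms2, Smc1b, Arfgap2, Marchf8 and Grip2 (0.93 to 0.92), with Cd72 in rank 3554. Apart from Snx30, just short of 60 Mb on chromosome 4, the rows with a single position lie outside the stretch that holds the 4 genes.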

How the data were processed

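The deposited files hold whole-number counts per gene symbol, 1 column per library, which the values show to be not normalized. Per the submitters' processing notes Trim Galore, HISAT2, StringTie and the build mm10 were used, with a counting step and annotation not given in the sources used here. Per the labels' protocols RNA was taken up in TRIzol and made into stranded total RNA libraries. No row lacked a name (0 of 53546).

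edgeR 4.0.16 in R 4.3.3 was used for the filter (filterByExpr), the TMM scaling and the quasi-likelihood test of cancer against normal (glmQLFit, robust, then glmQLFTest), without covariates. P-values of the 9565 rows kept were adjusted by the Benjamini-Hochberg method and called at 0.05. Intervals are 95% ones from the same fit. DESeq2 1.42.0 was an alternative. The procedure was also run on simulated data with a group effect alone. These held no Olfr648 division, so that run does not bear on the division. P-values of the group test set the difference between groups against the spread between these samples. Correlations used log2 CPM with a prior count of 2 and permutations of libraries (SciPy 1.17.1, Python 3.11.15). Positions and exon lengths are those of GENCODE M21 (49966 symbols with 1 position).

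The 4 genes, the gene lists and the tests were chosen with earlier results of these data known. Named beyond the 4 genes were, per list, called rows or else the 2 most abundant, the 5 rows most like each gene, and called or nearest neighbours. Genes outside this rule (Ebf1, Ptpn6, Prdm1, Jchain, Blk, Cd79a, Cd3d, Cd3g, Tesk1 and genes at 0) were named after their values were seen. Alternatives were other scalings, filters and tests, a replicate block, the repeated file kept, the Olfr648 row or division, thinning, and each library left out.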

Additional observations from a re-analysis of the deposited data

How the results depend on the processing

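Lyn kept its direction in all 24 alternatives and was called in 1, with Olfr648 left out and totals alone (0.60). Pax5, Bach2 and Cd72 were called in none, with log2 fold changes on either side of 0. In that same scaling they were 0.37, 0.31 and 0.27. With the Olfr648 division as a covariate Pax5 was 0.057 and Cd72 0.028. Within the high libraries Pax5 was 0.21 and Bach2 0.0077, and within the low ones Cd72 was 0.12. Pax5 was also above 0 with no filter (0.022), Olfr648 left out with TMM (0.0045), TMM from the 60 Mb stretch (0.030) and thinned libraries (0.0064).

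Without each library in turn Pax5 ran from -0.084 to 0.087, Bach2 from -0.14 to -0.0011, Cd72 from -0.20 to -0.04 and Lyn from 0.14 to 0.23. Pax5 was above 0 without normal replicate 5 (0.087) or colorectal cancer replicate 3 (0.0095). Rows called over the whole table ran from 16 to 67 higher and from 89 to 139 lower. The other counts of higher and lower rows that moved were 162 and 238 with DESeq2, 13 and 68 with the division as a covariate, 34 and 27 in the high libraries and 4 and 4 in the low ones. Higher rows alone moved to 82 with a mean of 10 CPM, 1383 with totals alone and 112 with the repeated file kept.

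Same-numbered replicates did not deviate together (r from -0.07 to 0.03 over 5 pairs, and 0 of 5 cancer libraries matched best with their own number). With the replicate block Pax5 was 0.098, Bach2 0.00089, Cd72 -0.06 and Lyn 0.16, none called, and 6 higher and 59 lower rows were called. Leaving out Olfr648 about doubled every level (Pax5 1430 and 1434 CPM in normal and cancer with TMM). Of the 5 rows most like each gene, 3, 3, 4 and 2 were kept for Pax5, Bach2, Cd72 and Lyn when all tested rows were ranked. What made these values move was not tested. Among 20 groups of levels and ratios looked at for a library far from its group, 0 were found.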
